A study of Mus musculus with 4 samples.

Results

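The 9 genes described here make, break down, bind or sense hyaluronan in the mesenchyme of the embryonic mouse molar. They were taken by symbol from the 22072 gene symbols of the deposited tables. Has1, Has2 and Has3 encode the hyaluronan synthases, Hyal1 and Hyal2 encode hyaluronidases, Vcan encodes the proteoglycan versican, Hapln1 and Hapln3 encode link proteins, and Cd44 encodes a hyaluronan receptor. All 9 were listed in every library, and their 18 transcripts had a usable estimate in every library. Levels are in FPKM, which counts sequenced fragments per transcript length and per library size. An average of 1 FPKM or more over the libraries was reached by 5 of the 9, which entered the tests, and by 10502 of all symbols.

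RNA was sequenced from molar mesenchyme cut by laser from frozen heads at embryonic day 13.5, with 1 library for each of 4 groups. The mutant lower and upper molars carried 2 floxed Bmp4 alleles and the Wnt1Cre transgene (Bmp4f/f;Wnt1Cre). The control lower and upper molars carried 1 floxed and 1 unmodified allele (Bmp4f/+). All groups were of mixed background, and each library pooled material of 3 pairs. Wnt1-Cre acts in the neural crest, from which the mesenchyme of the tooth descends, so Bmp4 of other cells was left in place. The label of the control names no Cre, so an effect of the transgene cannot be told apart from that of the Bmp4 deletion. The control also carries a floxed allele, so neither group is wild type at Bmp4.

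Hyaluronan is a long, unsulfated sugar chain that synthases spin out directly through the plasma membrane, where it binds water and opens space between cells. Versican attaches to the chain by its N-terminal globular domain, link proteins lock that attachment, and Cd44 ties the chain to the cell surface and, through ERM proteins, to the actin skeleton. Has2 is the synthase on which mouse embryos depend most, and a matrix rich in hyaluronan and versican is typical of condensing and loose embryonic mesenchyme. Hyal2, anchored at the cell surface, and Hyal1, a lysosomal enzyme, are known as the main hyaluronidases of somatic tissues.

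Depth was close to even. About 5000000 and 5550000 reads lay on annotated transcripts in the mutant lower and upper molar, against 4820000 and 4840000 in the control lower and upper molar, and between 10444 and 10463 genes per library reached 1 FPKM. Counting intervals of FPKM below are exact Poisson limits at 95% on approximate reads. Those of ratios are 95% limits from a normal approximation on the log scale. Both cover counting error only, since amplified reads are not independent molecules. Bmp4, the deleted gene, had 4.90 and 4.75 FPKM in the mutant lower and upper molar, against 27.2 and 24.8 FPKM in the control lower and upper molar, and its mutant minus control effect was -2.21 ± 0.11 (SE; limma adjusted p = 0.0008). Mesenchymal markers of the tooth were abundant, all 12 listed genes passing 1 FPKM, with Msx1 at 98.4 and 135 FPKM in the mutant lower and upper molar, against 126 and 150 FPKM in the control lower and upper molar.

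Vcan and Cd44 are read as several transcripts, which differ by whole exons, and the sequences that join those exons are given here because the levels of each form follow. Versican carries its chondroitin sulfate chains on regions encoded by a pair of very large exons, exon 7 (GAG-alpha) of 2880 bases and exon 8 (GAG-beta) of 5217 bases, both counted from the first exon of the longest transcript on chromosome 13. The lengths of the deposited transcripts V0 to V3 differ by exactly these exons. V0 has both, V1 skips exon 7, V2 skips exon 8, and V3 skips both, 8097 bases in all. Each line gives 40 bases of the GENCODE mouse transcript (GRCm38), 5′ to 3′, with the bases of the downstream exon in capitals.
Vcan V0, exon 6 to exon 7: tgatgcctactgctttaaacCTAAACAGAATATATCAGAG
Vcan V0, exon 7 to exon 8: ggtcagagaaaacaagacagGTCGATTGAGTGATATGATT
Vcan V1, exon 6 to exon 8: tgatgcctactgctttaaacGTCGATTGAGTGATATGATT
Vcan V2, exon 7 to exon 9: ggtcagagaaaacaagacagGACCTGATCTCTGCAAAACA
Vcan V3, exon 6 to exon 9: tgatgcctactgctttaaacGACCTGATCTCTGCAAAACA
Cd44 on chromosome 2 is built on the same plan. Its 19 exons include 10 variable ones, exons 6 to 15, which lengthen the stalk of the receptor outside the cell and are 1245 bases long together. The standard form joins exon 5 to exon 16, and the longest form joins exon 5 to exon 6.
Cd44 standard, exon 5 to exon 16: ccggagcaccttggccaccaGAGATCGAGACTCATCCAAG
Cd44 longest, exon 5 to exon 6: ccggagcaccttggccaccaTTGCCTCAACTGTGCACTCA

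The order of the 9 levels was similar in the 4 libraries. Vcan was first in every library, between 55.2 and 81.1 FPKM, Has2 and Hyal2 held the next places, Cd44 was the fourth and Hyal1 the fifth. Has2 stood above Hyal2 in both mutant libraries. In both control libraries their counting intervals overlapped, and in the control lower molar Has2 had 10.7 FPKM (9.90 to 11.6) and Hyal2 10.9 FPKM (9.64 to 12.3). Hapln1, Has1, Has3 and Hapln3 each averaged less than 1 FPKM. Nearest the threshold of 1 FPKM were Hyal1 from above, with a mean of 1.49 FPKM, and Hapln1 from below, with a mean of 0.975 FPKM.

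**Figure D1:**
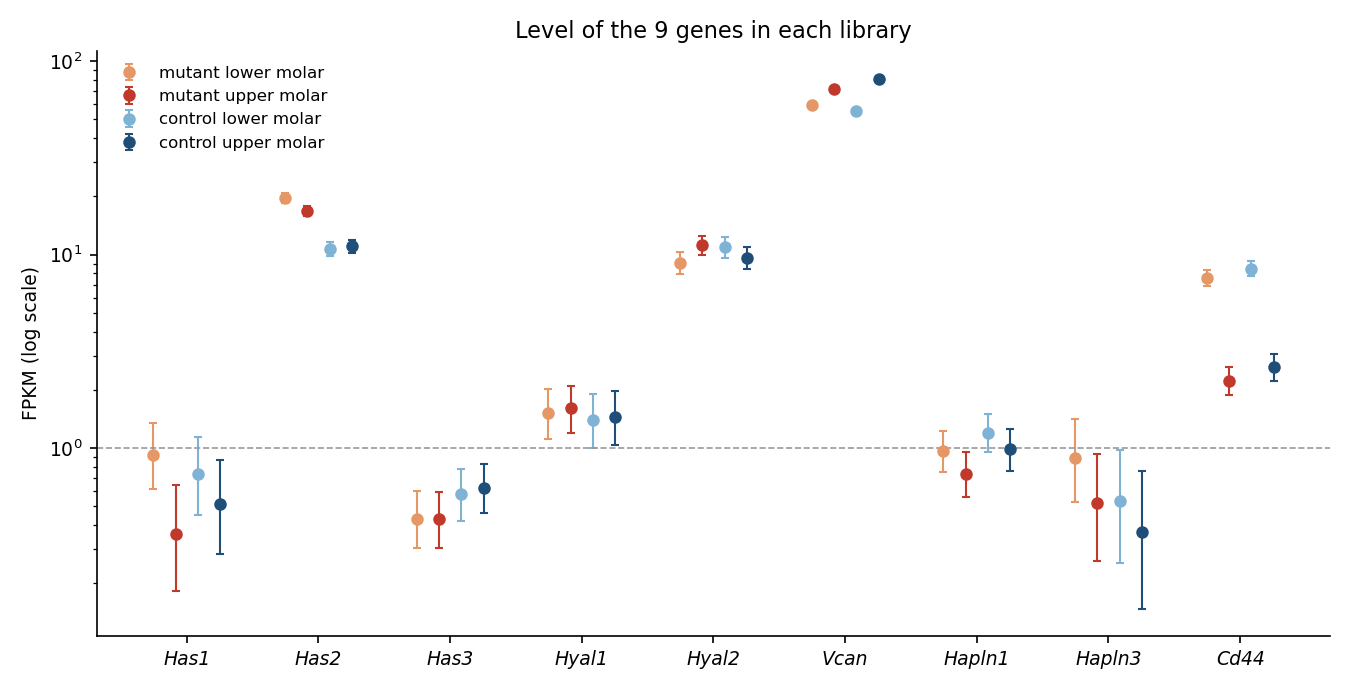
FPKM of the 9 genes on a log axis in the 4 libraries, 1 point per library, with exact Poisson 95% intervals of counting error and the threshold of 1 FPKM dashed. Has2 lies higher in both mutant libraries, at 19.6 and 16.8 FPKM, than in both control libraries, at 10.7 and 11.1 FPKM, while Cd44 separates the lower from the upper molars.

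Among the synthases, Has2 carried nearly all of the signal and was higher in both mutant libraries. Has2 (chromosome 15, 56497182 to 56526101, mm9) had 19.6 FPKM (18.5 to 20.7) and 16.8 FPKM (15.8 to 17.8) in the lower and upper molar of the mutant, against 10.7 FPKM (9.90 to 11.6) and 11.1 FPKM (10.2 to 12.0) in the lower and upper molar of the control. These values rest on about 1170 and 1059 reads in the mutant lower and upper molar, against about 594 and 615 reads in the control lower and upper molar. Both mutant values lay above both control values, with no overlap of the counting intervals. The ratio of mutant to control was 1.82-fold (1.65 to 2.01, counting error) in the lower molar and 1.52-fold (1.37 to 1.68) in the upper molar.

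With both molars in 1 fit, the mutant minus control effect of Has2 was 0.68 ± 0.12 on the log2(FPKM + 1) scale (SE, with an unadjusted 95% interval of 0.41 to 0.96), and it did not pass the threshold over all 10502 genes (limma adjusted p = 0.065). It was the 87th highest genotype effect of those genes. Restricted to genes averaging 5 FPKM or more, the same effect had a limma adjusted p of 0.0054, and over 11 alternative settings the limma adjusted p ranged up to 0.97 (without the control upper molar and the molar term) while the effect stayed between 0.58 and 0.79. The fit leaves 1 residual degree of freedom, so its p-values rest on how far the 2 molars disagree, moderated over genes of similar level, and not on the spread between embryos or pools. In bulk tissue a change in the number of cells of a type and a change in RNA per cell cannot be told apart.

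The other synthases were scarce. Has1 (chromosome 17, 17980290 to 17992152) had 0.926 and 0.362 FPKM in the mutant lower and upper molar, against 0.739 and 0.517 FPKM in the control lower and upper molar, on 11 to 27 reads. Has3 (chromosome 8, 109394142 to 109406802) had 0.433 and 0.432 FPKM in the mutant lower and upper molar, against 0.580 and 0.624 FPKM in the control lower and upper molar, on 36 to 48 reads. Both mutant values of Has3 lay below both control values, though the counting intervals overlapped, and Has1 showed no such separation. Has2 made up 93.5% and 95.5% of the summed FPKM of the synthases in the mutant lower and upper molar, against 89.1% and 90.7% in the control lower and upper molar. The sum itself was 20.9 and 17.6 FPKM in the mutant lower and upper molar, against 12.1 and 12.2 FPKM in the control lower and upper molar.

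An antisense gene, Has2as, lies inside the Has2 locus (56521499 to 56526015 on chromosome 15) and was the only gene found to overlap any of the 9. Strand was not stated for these libraries, so reads of Has2 and Has2as in the shared stretch cannot be told apart. Has2as had 3.47 and 5.45 FPKM in the mutant lower and upper molar, against 4.99 and 2.55 FPKM in the control lower and upper molar, on 16 to 39 reads. Its genotype effect was 0.22 ± 0.27 (SE; limma adjusted p = 0.78), with opposite directions in the 2 molars.

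Among the 5306 other genes averaging 5 FPKM or more, the 3 whose pattern over the 4 libraries lay nearest to that of Has2 were Rpl34, Myl9 and Gm15450. Distance here is Euclidean, on log2(FPKM + 1) centred for each gene over 4 libraries. Rpl34, a ribosomal protein gene, lay at 0.0866, with 13.0 and 11.8 FPKM in the mutant lower and upper molar, against 6.92 and 7.69 FPKM in the control lower and upper molar. Myl9, a myosin light chain gene of contractile cells, lay at 0.0915, with 20.3 and 17.5 FPKM in the mutant lower and upper molar, against 12.1 and 11.5 FPKM in the control lower and upper molar. Gm15450, at 0.154, carries a provisional symbol.

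The hyaluronidases showed no separation of this size. Hyal2 (chromosome 9, 107471494 to 107475109) had 9.09 and 11.2 FPKM in the mutant lower and upper molar, against 10.9 and 9.65 FPKM in the control lower and upper molar. It was lower in the mutant in the lower molar and higher in the upper molar, so its fitted effect was near 0, at -0.02 (unadjusted 95% interval -0.34 to 0.30; limma adjusted p = 0.97). Hyal1, which starts 4173 bases beyond the end of Hyal2 (chromosome 9, 107479283 to 107482464), had 1.52 and 1.60 FPKM in the mutant lower and upper molar, against 1.40 and 1.45 FPKM in the control lower and upper molar. Both mutant values were above both control values, by less than the counting error of 40 to 52 reads, and the effect was 0.08 (unadjusted 95% interval -0.27 to 0.42; limma adjusted p = 0.86).

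The ratio of synthase to hyaluronidase transcripts was higher in both mutant libraries. The summed FPKM of the synthases over that of Hyal1 and Hyal2 was 1.97 and 1.37 in the mutant lower and upper molar, against 0.979 and 1.10 in the control lower and upper molar. The hyaluronidase sum was 10.6 and 12.8 FPKM in the mutant lower and upper molar, against 12.3 and 11.1 FPKM in the control lower and upper molar, so the mutant and control ranges of that sum overlapped. Ratios of transcripts are not measures of the sugar.

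Vcan was the most abundant of the 9, and neither genotype nor molar gave a difference past the threshold. Vcan (chromosome 13, 89794915 to 89882117) had 59.1 and 71.8 FPKM in the mutant lower and upper molar, against 55.2 and 81.1 FPKM in the control lower and upper molar, on 8087 to 11954 reads. It ranked 300 and 278 among all genes in the mutant lower and upper molar, against 352 and 240 in the control lower and upper molar. Its genotype effect was -0.04 (unadjusted 95% interval -0.31 to 0.23; limma adjusted p = 0.92), with the mutant higher in the lower molar and lower in the upper molar. For every FPKM of Has2 there were 3.02 and 4.28 FPKM of Vcan in the mutant lower and upper molar, against 5.14 and 7.32 FPKM in the control lower and upper molar.

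Between the molars, Vcan was lower in both lower molar libraries than in both upper molar libraries. The ratio of lower to upper was 0.823 in the mutant and 0.681 in the control. The lower minus upper effect was -0.41 ± 0.11 (SE, unadjusted 95% interval -0.68 to -0.14) and did not pass the threshold (limma adjusted p = 0.26), standing 335th from the lowest of 10502.

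The mix of versican forms varied little between libraries. V0 had 37.3 and 44.3 FPKM in the mutant lower and upper molar, against 35.1 and 49.1 FPKM in the control lower and upper molar, which was 60.6% to 63.5% of the gene. V1 made up 33.9% to 36.3% and a short transcript of 3745 bases made up 2.15% to 3.13%. The ratio of V0 to V1 was 1.85 and 1.70 in the mutant lower and upper molar, against 1.88 and 1.67 in the control lower and upper molar. V2, known mainly from the brain, reached at most 0.0873 FPKM, and V3 was near 0 throughout. The files give no error for these splits, since Cufflinks assigns shared reads to transcripts by a model.

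**Figure D2:**
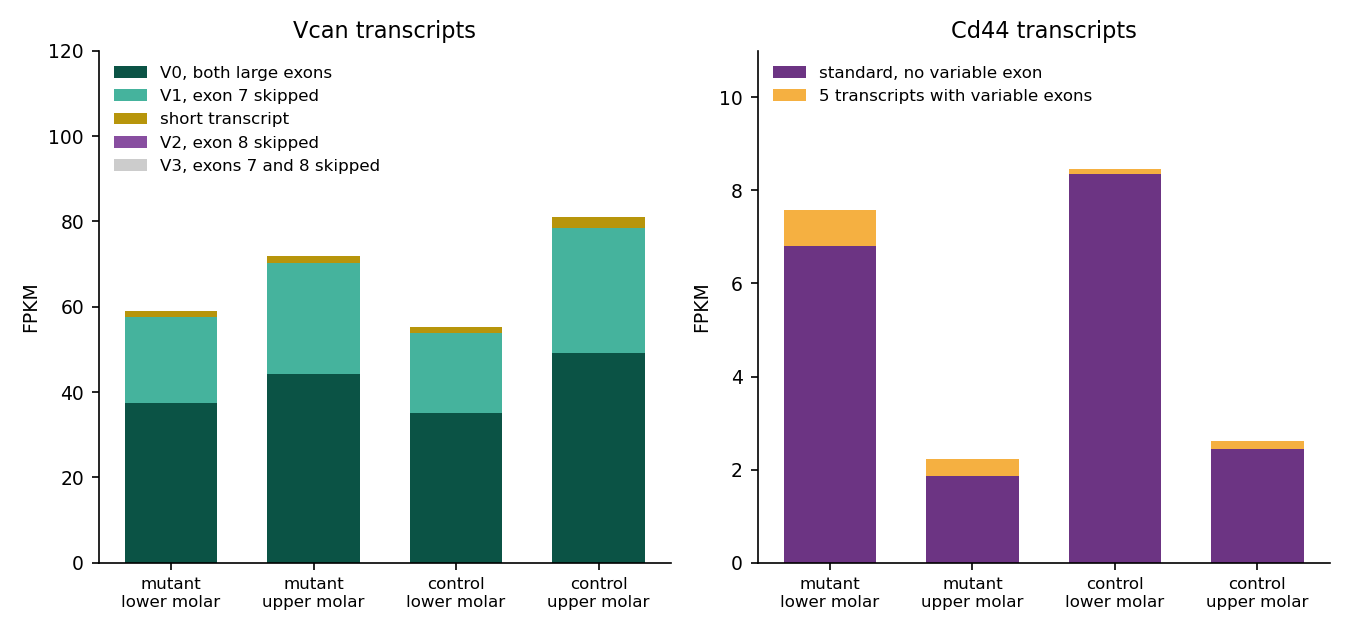
Stacked FPKM of the Vcan transcripts (left) and the Cd44 transcripts (right) in the 4 libraries, with bars from 0. V0 and V1 fill nearly all of each Vcan bar in like proportion, and the standard Cd44 form fills 83.4% to 98.8% of each Cd44 bar.

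The link proteins were low. Hapln1, 43477 bases from Vcan on the same chromosome (13, 89680241 to 89751437), had 0.971 and 0.739 FPKM in the mutant lower and upper molar, against 1.20 and 0.990 FPKM in the control lower and upper molar, on 56 to 79 reads. Both mutant values were below both control values, but the nearest of them, in the mutant lower and the control upper molar, lay within counting error of each other. Hapln3 (chromosome 7, 86261913 to 86275904) had 0.892 and 0.520 FPKM in the mutant lower and upper molar, against 0.531 and 0.369 FPKM in the control lower and upper molar, on 7 to 18 reads, and the genotypes overlapped. With no filter on low values, the genotype effects of Has1, Has3, Hapln1 and Hapln3 were between -0.18 and 0.23, with limma adjusted p from 0.61 to 0.997.

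Cd44 (chromosome 2, 102651300 to 102741822) was the one gene of the 9 that passed a test, and it did so between the molars. In the lower molar it had 7.58 FPKM (6.92 to 8.30) in the mutant and 8.46 FPKM (7.73 to 9.25) in the control, against 2.23 FPKM (1.89 to 2.62) in the upper molar of the mutant and 2.62 FPKM (2.22 to 3.06) in that of the control. About 477 and 487 reads lay behind the lower molar values of mutant and control, against about 149 and 154 reads in the upper molars. The lower molar exceeded the upper molar by 3.40-fold (2.83 to 4.08, counting error) in the mutant and by 3.23-fold (2.70 to 3.88) in the control. The molars were far apart, and within each molar the counting intervals of mutant and control overlapped.

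Cd44 rose in the lower relative to the upper molar by 1.40 ± 0.11 on the log2(FPKM + 1) scale (SE, unadjusted 95% interval 1.14 to 1.66; limma adjusted p = 0.0042). This was the 17th highest molar effect of 10502 genes. The limma call was kept in 5 of 11 alternatives, whose adjusted p ranged from 0.00029 to 0.51, and the effect stayed between 1.32 and 1.69. It was also lost in fits that left out 1 library, which had to drop the genotype term as well, with a limma adjusted p of 0.28 without the mutant lower molar, 0.074 without the mutant upper molar, 0.27 without the control lower molar and 0.059 without the control upper molar. Between genotypes the effect was -0.15 (unadjusted 95% interval -0.41 to 0.11; limma adjusted p = 0.61), with the mutant slightly lower in both molars.

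The standard form, which lacks the variable exons, accounted for most Cd44. It had 6.80 and 8.36 FPKM in the mutant and control lower molar, against 1.86 and 2.45 FPKM in the mutant and control upper molar, ratios of 3.65 in the mutant and 3.42 in the control. Transcripts with variable exons, 5 in all, summed to 10.4% and 16.6% of Cd44 in the mutant lower and upper molar, against 1.19% and 6.44% in the control lower and upper molar. Those shares rest on about 55 and 27 assigned reads in the mutant lower and upper molar. In the control lower and upper molar they rest on about 7 and 13, and the transcripts differ from library to library. Cufflinks assigns reads to whole transcripts by a model, and most bases of these transcripts are shared with the standard form of 4407 bases. Reads on the variable exons themselves were not counted, so fewer reads than these tell the forms apart, and the files give no error for the split. The variable share was higher in both mutant libraries, which is a description with no test. Esrp1, which encodes a splicing factor known for inclusion of Cd44 variable exons in epithelium, had 0.905 and 0.331 FPKM in the mutant lower and upper molar, against 0.621 and 0.665 FPKM in the control lower and upper molar.

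Leukocytes carry much Cd44, so their markers are given beside it. The 13 leukocyte markers summed to 11.1 and 9.12 FPKM in the mutant and control lower molar, against 8.73 and 8.28 FPKM in the mutant and control upper molar. Of these markers 6 were higher in both lower molar libraries than in both upper molar libraries and 0 were lower. Among all tested genes 12.2% were higher and 21.2% lower, but of the 6 markers only Fcer1g was tested. The others averaged less than 1 FPKM, so these shares come from an unlike set and show no enrichment. Only 3 of the 13 averaged 1 FPKM or more, and Cd163 was under 0.1 FPKM throughout. Ptprc, the pan-leukocyte gene, had 0.221 and 0.225 FPKM in the mutant and control lower molar, against 0.112 and 0.0960 FPKM in the mutant and control upper molar, on 7 to 17 reads. Osteoblast markers (9) summed to 207 and 206 FPKM in the mutant and control lower molar, against 151 and 172 FPKM in the mutant and control upper molar, most of it Col1a1, with 2 markers higher in both lower molars, 0 lower, and Bglap under 0.1 FPKM. The part of these cell types in the Cd44 difference was not tested.

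The sums of tooth mesenchyme and muscle markers were lower in both lower molar libraries. The 12 tooth mesenchyme markers summed to 817 and 807 FPKM in the mutant and control lower molar, against 892 and 867 FPKM in the mutant and control upper molar, with 4 markers higher and 5 lower in both lower molars. The 11 muscle markers summed to 3.38 and 3.19 FPKM in the mutant and control lower molar, against 3.62 and 3.86 FPKM in the mutant and control upper molar, with 2 markers lower in both lower molars, 0 higher, and 5 (Myod1, Myf5, Myh3, Myh8 and Ckm) under 0.1 FPKM throughout. Cartilage sums overlapped between the molars, but 7 of the 14 cartilage markers, among them Sox6, were lower and 2 higher in both lower molars. Only 5 of the 14 were tested. Both lower molar libraries lay above both upper molar libraries for 12.2% of all tested genes and below for 21.2%. The part of these cell types in the lower values of Vcan was not tested.

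The remaining molar differences were small. Has2 had a lower minus upper effect of 0.08 (unadjusted 95% interval -0.19 to 0.36; limma adjusted p = 0.88), and Hyal1 and Hyal2 had effects of -0.04 and -0.06, with limma adjusted p of 0.97 and 0.94. Among the genes under the threshold, Has1 and Hapln3 were higher in both lower molar libraries, as were 12.2% of all tested genes, which are more abundant. For Hapln3 the nearest values were 0.531 FPKM in the control lower molar and 0.520 FPKM in the mutant upper molar. Counting intervals of the lower to upper ratio included 1 for Hapln3 in both genotypes. For Has1 the interval included 1 in the control (0.725 to 2.82) but not in the mutant (1.28 to 5.12). With no filter on low values the limma adjusted p of the 4 scarce genes for the molars ran from 0.70 to 0.97.

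**Figure D3:**
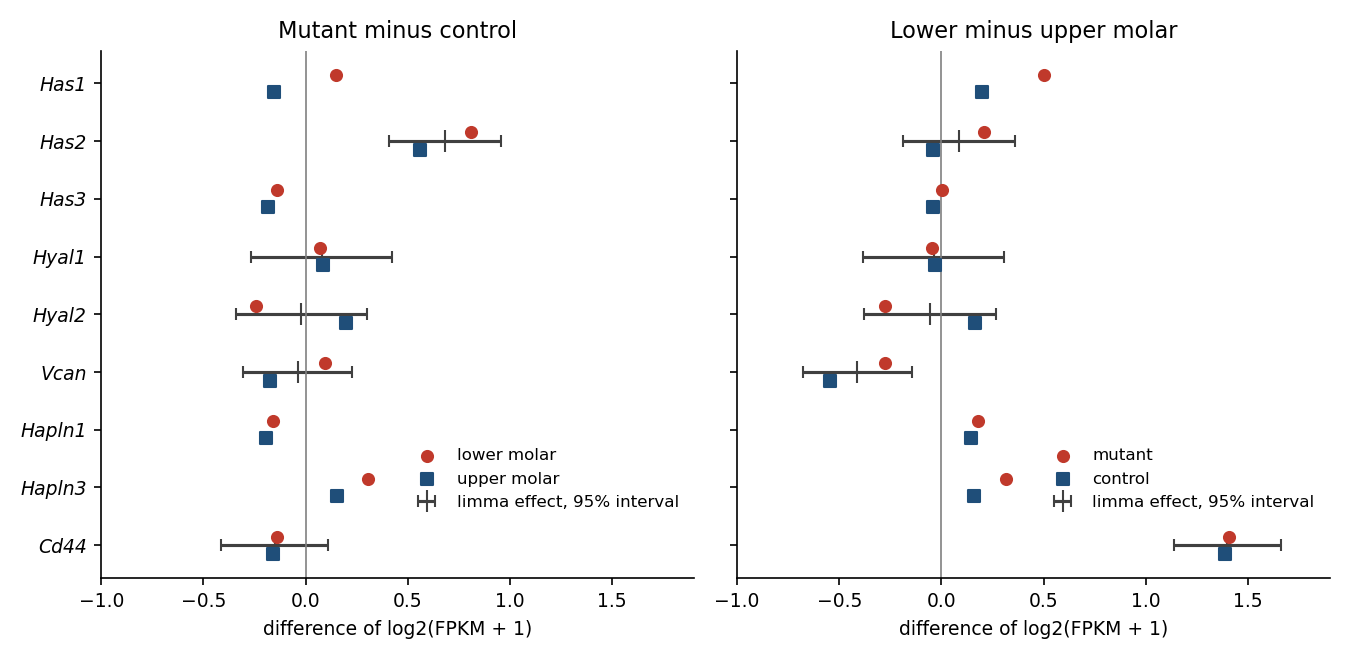
Differences of log2(FPKM + 1) for the 9 genes, mutant minus control in each molar (left) and lower minus upper molar in each genotype (right). Bars are the limma effect of the 5 tested genes with its unadjusted 95% interval. Has2 lies at 0.81 and 0.56 in the left panel and Cd44 at 1.41 and 1.39 in the right panel.

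Counted together, the 9 genes did not move as a block. Over all 9, both mutant libraries lay above both controls for 2 and below for 2. Among all tested genes the shares were 18.4% and 23.1%. The counts that follow are over the 5 tested genes. For mutant against control, 0 of the 5 tested genes passed the limma threshold, where 0.8% of all tested genes did (84 genes), and 1 of the 5, Has2, had an unadjusted limma p under 0.05, against 1386 of all tested genes. A difference of at least 2-fold was reached by 0 of the 5 in the lower molar, where 1.1% of all tested genes reached it, and by 0 of the 5 in the upper molar, where 1.01% did. Both mutant libraries lay above both controls for 2 of the 5, Has2 and Hyal1, a pattern that 18.4% of all tested genes showed, and below for 0 of the 5, against 23.1% of all tested genes. The median effect of the 5 was -0.020, against a median of -0.015 over all tested genes.

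For lower against upper molar, 1 of the 5 passed the limma threshold, where 0.724% of all tested genes did (76 genes). Cd44 alone reached 2-fold, both in the mutant, where 1.28% of all tested genes did, and in the control, where 0.971% did. Both lower molar libraries lay above both upper molar libraries for 1 of the 5, Cd44, where 12.2% of all tested genes showed this. Both lay below for 1 of the 5, Vcan, where 21.2% of all tested genes showed this. Over all 9 genes, scarce ones included, both lower molar libraries lay above for 3 and below for 1. The median molar effect was -0.04 for the 5 and -0.04 over all tested genes.

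**Figure D4:**
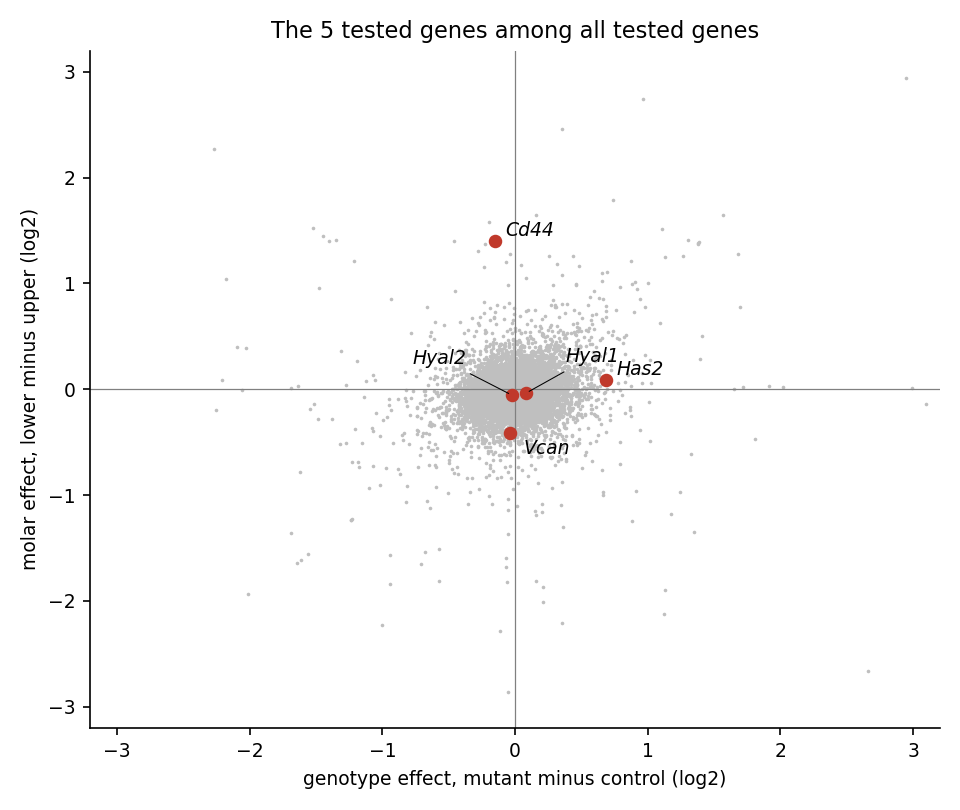
Genotype effect (horizontal, mutant minus control) against molar effect (vertical, lower minus upper), both in log2(FPKM + 1), for all tested genes in grey and the 5 tested genes of the group in red. Has2 stands to the right at 0.68 and Cd44 at the top at 1.40, and 7 genes lie beyond the axes.

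Genes around the 9 were followed in 5 lists, chosen with earlier results of these data known. Of the 17 genes that supply precursors of hyaluronan or break it down, 12 were tested and none passed the limma test for genotype, which 0.8% of all tested genes passed. An unadjusted p under 0.05 was reached by 2 of the 12, against 1386 of all 10502 tested genes. Their median effect was 0.00, against -0.02 over all tested genes. Differences were positive in both molars for 5 and negative in both for 4, a sharing of direction not counted over all tested genes. Ugp2, which makes UDP-glucose, had 15.4 and 17.2 FPKM in the mutant lower and upper molar, against 13.3 and 10.7 FPKM in the control lower and upper molar (0.42 ± 0.13, SE; limma adjusted p = 0.28). Hexa, a subunit of a lysosomal hexosaminidase, had 6.38 and 6.22 FPKM in the mutant lower and upper molar, against 4.52 and 5.20 FPKM in the control lower and upper molar (limma adjusted p = 0.33).

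Also without a call, Uap1, which makes UDP-N-acetylglucosamine, had an effect of 0.21 (limma adjusted p = 0.50). Tmem2, a cell surface protein that degrades hyaluronan in mice, had 6.28 and 6.64 FPKM in the mutant lower and upper molar, against 7.68 and 7.42 FPKM in the control lower and upper molar (limma adjusted p = 0.50). Hyal3, the neighbour of Hyal1, had 1.29 and 0.737 FPKM in the mutant lower and upper molar, against 1.32 and 0.939 FPKM in the control lower and upper molar. The degrading genes Hyal4, Hyal5, Hyal6, Spam1 and Cemip were under 0.1 FPKM in all libraries.

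Of 21 other hyaluronan-binding genes only 5 were tested, none passed the limma test for genotype, against 0.8% of all tested genes, and 2 had an unadjusted p under 0.05, against 1386 of 10502. Their median effect was -0.27, against -0.02 over all tested genes. Hmmr, a hyaluronan receptor that is also a spindle protein of dividing cells, had 9.98 and 12.0 FPKM in the mutant lower and upper molar, against 13.6 and 14.1 FPKM in the control lower and upper molar (-0.31 ± 0.11, SE; limma adjusted p = 0.33). C1qbp, mostly a mitochondrial protein, had an effect of -0.27 (limma adjusted p = 0.36) and Itih5, of the inter-alpha-inhibitor family, one of -0.47 (limma adjusted p = 0.43). Tnfaip6, which transfers heavy chains onto hyaluronan, had 3.03 and 2.29 FPKM in the mutant and control lower molar, against 1.39 and 1.21 FPKM in the mutant and control upper molar, a molar effect of 0.66 (limma adjusted p = 0.13). The lecticans Acan and Bcan and the link proteins Hapln2 and Hapln4 were under 0.1 FPKM throughout, and the lectican Ncan had 0.139 and 0.0908 FPKM in the mutant lower and upper molar, against 0.102 and 0.194 FPKM in the control lower and upper molar.

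Among 12 partners and proteases of versican, 7 were tested, and none passed the limma test for genotype, against 0.8% of all tested genes. An unadjusted p under 0.05 was reached by 5 of the 7, against 1386 of 10502 tested genes, and the median effect was -0.22, against -0.02 over all tested genes. Differences were positive in both molars for 3 and negative in both for 4, a sharing of direction not counted over all tested genes. Adamts1, a protease that cuts versican, had 7.46 and 3.99 FPKM in the mutant lower and upper molar, against 4.44 and 2.48 FPKM in the control lower and upper molar (genotype 0.58 ± 0.11, SE; limma adjusted p = 0.10). Its molar effect was 0.70 (limma adjusted p = 0.058), so both of its differences were positive. Fbln2, a fibulin that binds versican, had 25.3 and 16.6 FPKM in the mutant lower and upper molar, against 17.8 and 11.6 FPKM in the control lower and upper molar (genotype 0.48 ± 0.10, SE; limma adjusted p = 0.13).

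Lower in the mutant in both molars without passing the test were the microfibril gene Fbn1 and the matrix glycoprotein gene Tnc. Fbn1 had 17.7 and 15.6 FPKM in the mutant lower and upper molar, against 25.5 and 21.4 FPKM in the control lower and upper molar (limma adjusted p = 0.15). Tnc had 19.3 and 18.0 FPKM in the mutant lower and upper molar, against 30.1 and 20.0 FPKM in the control lower and upper molar (limma adjusted p = 0.32). Adamts4, Adamts5, Adamts8 and Adamts15 averaged less than 1 FPKM.

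Of 20 genes for the chondroitin sulfate chains that versican carries, 17 were tested, 1 rose and 0 fell in the mutant, where 0.8% of all tested genes were called in either direction, with a median effect of 0.05 against -0.02 over all tested genes. The gene that rose was Csgalnact1, whose enzyme starts and extends the chain. It had 7.84 and 8.69 FPKM in the mutant lower and upper molar, against 3.43 and 4.75 FPKM in the control lower and upper molar (0.87 ± 0.12, SE; limma adjusted p = 0.034). This limma call was kept in 2 of 11 alternatives, those with a pseudocount of 0.1 and with genes averaging 5 FPKM or more, and was lost without the molar term (limma adjusted p = 0.29) and in the fits that dropped both that term and 1 library (0.26 to 0.91). B4galt7, which adds a sugar of the linker, had 1.82 and 1.99 FPKM in the mutant lower and upper molar, against 1.25 and 1.18 FPKM in the control lower and upper molar (limma adjusted p = 0.34). B3galt6, which adds the next linker sugar, had 0.914 and 1.07 FPKM in the mutant lower and upper molar, against 1.23 and 1.64 FPKM in the control lower and upper molar (-0.28 ± 0.16, SE; limma adjusted p = 0.50). Ust, a sulfotransferase of the chain, had an effect of 0.25 (limma adjusted p = 0.61).

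Of 14 partners of Cd44, 11 were tested, 0 rose and 1 fell in the mutant, where 0.8% of all tested genes were called in either direction, with a median effect of -0.09 against -0.02 over all tested genes. The gene that fell was Mmp9, a secreted protease that can dock on Cd44. It had 0.529 and 2.02 FPKM in the mutant lower and upper molar, against 3.40 and 4.76 FPKM in the control lower and upper molar (-1.23 ± 0.17, SE; limma adjusted p = 0.036), and the limma call was lost in each of the 10 alternatives that could test it, with adjusted p from 0.056 to 0.97. Msn, an ERM protein that links Cd44 to actin, had 27.9 and 30.4 FPKM in the mutant lower and upper molar, against 31.7 and 38.3 FPKM in the control lower and upper molar (limma adjusted p = 0.38). Nf2, an ERM relative that binds the Cd44 tail, had 9.80 and 11.9 FPKM in the mutant lower and upper molar, against 9.45 and 8.35 FPKM in the control lower and upper molar (0.26 ± 0.13, SE; limma adjusted p = 0.47). Ank3, an ankyrin, had an effect of 0.23 (limma adjusted p = 0.54). In all 5 lists, 0 genes passed the limma test between the molars, which 0.724% of all tested genes passed. The median molar effects ran from -0.10 to 0.21, against -0.04 over all tested genes.

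Markers of other cell types that separated the genotypes by their sum stand beside the Has2 values. The 14 cartilage markers summed to 24.5 and 33.3 FPKM in the mutant lower and upper molar, against 34.0 and 40.7 FPKM in the control lower and upper molar, with 0 markers higher and 2 lower in both mutant libraries, and with Matn1, Matn3 and Chad under 0.1 FPKM. Of these Sox9, a cartilage regulator that crest mesenchyme also uses, fell in the mutant (-1.18 ± 0.11, SE; limma adjusted p = 0.015), and Sox6 fell in the lower against the upper molar (-1.07; limma adjusted p = 0.022). Both limma calls were lost with no filter on low values, where 0 genes passed for either term. The other alternatives were not followed for Sox9 and Sox6. The 13 endothelial markers summed to 54.6 and 48.0 FPKM in the mutant lower and upper molar, against 59.1 and 63.6 FPKM in the control lower and upper molar, with 0 higher, 7 lower and none under 0.1 FPKM. Among all tested genes, both mutant libraries were above both controls for 18.4% and below for 23.1%, and many of the markers in these lists were too low to be tested.

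Neural and epithelial sums were higher in the mutant. The 11 neural and glial markers summed to 7.50 and 9.07 FPKM in the mutant lower and upper molar, against 5.10 and 3.98 FPKM in the control lower and upper molar, with 1 higher, 4 lower and none under 0.1 FPKM in every library. Nefl, a neurofilament gene, gave 4.15 and 6.89 FPKM of it in the mutant lower and upper molar, against 1.52 and 0.632 FPKM in the control lower and upper molar. The 14 epithelial markers summed to 22.9 and 24.8 FPKM in the mutant lower and upper molar, against 22.3 and 22.8 FPKM in the control lower and upper molar, with 2 higher, 1 lower and Shh under 0.1 FPKM. Osteoblast sums overlapped between genotypes, at 207 and 151 FPKM in the mutant lower and upper molar, against 206 and 172 FPKM in the control lower and upper molar. Yet 4 of the 9 markers were lower and 0 higher in both mutant libraries. Ibsp and Dmp1, which are 2 of those 4, were under 1 FPKM in every library and were not tested. Of the 5 osteoblast markers tested, 0 passed the limma threshold for genotype, where 0.8% of all tested genes did. An unadjusted limma p under 0.05 was reached by 3 of the 5, against 1386 of all 10502 tested genes. The median effect of the 5 was -0.63, against -0.02 over all tested genes. Runx2, an osteoblast regulator also known from tooth mesenchyme, had 31.0 and 39.5 FPKM in the mutant lower and upper molar, against 48.2 and 62.2 FPKM in the control lower and upper molar (-0.63 ± 0.10, SE; limma adjusted p = 0.056). Sp7, which acts after it in bone, had 4.25 and 1.92 FPKM in the mutant lower and upper molar, against 7.04 and 8.92 FPKM in the control lower and upper molar (-1.19 ± 0.25, SE; limma adjusted p = 0.12). For comparison, both mutant libraries lay above both controls for 18.4% of all tested genes and below for 23.1%. The part of these cell types in the Has2 difference was not tested.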

How the data were processed

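The authors' deposited tables, in the layout of Cufflinks output, give FPKM and coverage for 28107 transcript rows per library, per the file headers. The submitters' processing notes name TopHat 1.4.1, Bowtie 0.12.7 and the build mm9, with no Cufflinks version given. Per the labels' protocols, cDNA was amplified with the NuGEN Ovation v2 assay before Nextera libraries were made, so levels of scarce genes can carry amplification noise. The deposited coverage signal, a constant multiple of FPKM in each library, times length and divided by 44.2 bases per read gave approximate reads, and 3 reads on a transcript of 2 kb equal 0.101 to 0.115 FPKM. No count test was run, since the values do not resolve into whole reads.

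FPKM was summed per gene symbol. Differences were taken on log2(FPKM + 1) over genes averaging 1 FPKM or more. limma 3.58.1 in R 4.3.3 was fitted to all 10502 such genes with additive terms for genotype and molar and an intensity trend, two-sided, with Benjamini-Hochberg adjustment over all of them at 0.05, and was tested on simulated data. Values within a molar or genotype compare 1 library with 1 library and have no test. Members, lists and rules were chosen with earlier results of these data known. Named were all 9 members, Bmp4, up to 4 genes of each pathway list with the largest genotype effect and any called, the most abundant genes of each cell type list, and the 3 genes nearest to Has2. Genes of these lists named beyond the rule (Esrp1, Hyal3, Ptprc, Sox6, genes at or near 0 and genes under the threshold) were picked after their values were seen. Exon junctions were read from GENCODE transcripts matched by transcript ID, and no coordinates of that build were used. Alternatives changed the pseudocount, the filter, the scaling, the terms, the trend, the summing of transcripts and each library, the last together with dropping the other factor's term.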

Additional observations from a re-analysis of the deposited data

Results flagged for a closer look

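With 1 library per group, a gene is listed here when its mutant minus control difference, on log2(FPKM + 1), points one way in the lower molar and the other way in the upper molar. This was so for 3 of the 9 genes, and whether the molars differ was not tested. The share of all tested genes with opposite directions was not counted, so the listing does not mark these genes as unusual. Counting intervals of the mutant to control ratio included 1 for Has1 in both molars. The interval of Hyal2 included 1 in the upper molar (0.982 to 1.38) but not in the lower molar (0.698 to 0.992), and those of Vcan excluded 1 in both. For Hyal2 the difference was -0.24 in the lower molar and 0.20 in the upper molar, and the upper difference less the lower one was 0.44. For Has1 it was 0.15 in the lower molar and -0.16 in the upper molar, with -0.30 for upper less lower, on 11 to 27 reads per library. For Vcan it was 0.10 in the lower molar and -0.17 in the upper molar, with -0.27 for upper less lower. The larger Has2 ratio in the lower molar, 1.82-fold against 1.52-fold in the upper molar, has the same direction in both.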

How the results depend on the processing

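All genes called for genotype numbered 84, and they numbered 0 with no filter (1398 at an unadjusted limma p under 0.05), 146 at a mean of at least 5 FPKM, 14 after rescaling by median ratios, 7 without the molar term, 38 without the trend, 0 with the highest transcript of each gene (1002 unadjusted) and 5 to 18 without one library and the molar term. Of the members, 0 were called for genotype, and 1, Has2, at a mean of at least 5 FPKM. All genes called for molar numbered 76, and they numbered 0 with no filter (1225 unadjusted), 127 at a mean of at least 5 FPKM, 46 after rescaling, 12 without the genotype term, 1 with the highest transcript and 0 to 21 without one library and the genotype term. The 1 member called for molar, Cd44, became 0 with no filter (adjusted p 0.51 by limma), 0 with the highest transcript (limma adjusted p 0.0999) and 0 to 0 without one library. With 3 libraries, both terms leave no residual degree of freedom, so each fit without a library also dropped the term of the other factor, and its values carry both changes, with genotype and molar unbalanced by construction. In these fits the mutant minus control effect ran from -0.86 to 0.55 for Cd44, -0.16 to 0.12 for Hyal2 and -0.31 to 0.23 for Vcan, and the lower minus upper effect from -0.32 to 0.49 for Has2, -0.082 to 0.0048 for Hyal1 and -0.18 to 0.063 for Hyal2, so each changed sign. The Vcan difference in the lower molar was 0.16 after rescaling, against 0.10. The cause of the shifts in called genes and in adjusted p between settings was not tested. Has2 and Hyal1 kept a positive genotype effect, and Vcan a negative molar effect, in every setting that tested them. These signs could not change when a library was left out, since the groups of these genes did not overlap. Changing the filter or the trend, or dropping a term with all libraries kept, leaves the effect itself as it was. The constant sign is therefore no support for these differences, and that of Hyal1 lay within counting error. Depth limits Has1, Has3, Hapln1, Hapln3 and Hyal1, at 7 to 79 reads per library.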
